A study of Rattus norvegicus with 9 samples.

Results

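The 8 genes described here are CHGA, NHLH2, KRT8, KRT18, KRT20, PIEZO2, ATOH1 and ISL1, a list drawn up for Merkel cells and other neuroendocrine cells. They are 8 of the 23480 gene symbols in the table of read counts, written in capitals as deposited, and all 8 had at least 1 count in at least 1 sample. The list was drawn up with earlier results of the same samples in view. The old and young values of the 8 genes are therefore given as a description, without p-values. The samples were skin of Wistar rats, all male and of an albino stock, with 4 old (24 months) and 5 young (6 months). Each sample carries an identifier of its own in the labels, which do not say in words that each is a separate animal, so p-values measure the spread between these samples. The labels name no treatment and no body site. In bulk skin, fewer cells of a type and less RNA per cell cannot be told apart.

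Merkel cells are epidermal cells that sense gentle touch. In mouse skin they lie in clusters called touch domes and around whisker follicles, next to the endings of sensory nerves, and they arise from keratinocytes that switch on the transcription factor Atoh1. They keep simple keratins (Krt8, Krt18 and Krt20) that other epidermal cells of the adult lack, open the mechanically gated channel Piezo2 when pressed, and carry dense-core granules like those of endocrine cells. Chromogranin A (CHGA) is a packing protein of such granules. Most of these genes are also active elsewhere: PIEZO2 and ISL1 in sensory neurons, KRT8 and KRT18 in gland and other simple epithelia, and CHGA in neurons and endocrine glands.

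2 of the 9 libraries stood apart. Every count in old replicates 1 and 3 was an even number, while 51.6 to 51.9% of the counts above 0 were odd in each of the other 7 libraries. The deposited values of these 2 libraries are thus whole multiples of 2, and the source of this was not tested. As deposited, total counts ran from 20.1 to 34.1 M in old skin and from 17.3 to 20.2 M in young skin (M, a count of 1000000). With old replicates 1 and 3 halved, the old totals ran from 14.7 to 25.0 M. Raw counts below are as deposited, and fold changes are also given with these 2 libraries halved or left out. Levels are CPM, counts per M of the library after TMM scaling. Fold changes are log2 of old over young, with the standard error, from edgeR's quasi-likelihood fit on all 19484 genes with a count.

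The defining markers of Merkel cells were at or near 0. ATOH1, the transcription factor that specifies the cells, had 0, 0, 0 and 1 counts in old replicates 1 to 4 and 0 counts in each of the 5 young libraries. The 94.6 M young counts allow a pooled level of up to 0.0317 CPM for ATOH1, the level of 3 counts. KRT20, the keratin most specific to Merkel cells in skin, had 6, 0, 2 and 2 counts in old skin and 0, 1, 2, 1 and 0 in young skin. Its pooled ratio of old over young was 1.85 (exact 95% interval 0.438 to 8.90, with the even libraries halved). Intervals and limits of this kind cover counting error only. POU4F3 and GFI1, further transcription factors of Merkel cells, had at most 6 counts in any library, and SOX2, which other cells of the hair follicle also express, had 22, 14, 26 and 4 counts in old skin and 4, 4, 16, 11 and 3 in young skin. The counts of the other 6 genes therefore cannot be assigned to Merkel cells, and they are called below by their own names.

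Of the 8 genes, 1 passed an adjusted p of 0.05 in the fit over all genes, CHGA, and it was lower in old skin. Over all 19484 genes, 10.1% were called in either direction, 7.04% higher and 3.03% lower. With the even libraries halved, CHGA was again the 1 gene called, beside 10.2% of all genes (7.11% higher, 3.13% lower). Without them, CHGA and KRT8 were called, both lower, beside 7.89% of all genes (5.74% higher, 2.15% lower). The CPM of old and young skin did not overlap in 3 of the 8, CHGA, NHLH2 and KRT8, each lower in old skin. For KRT8 the groups did overlap when counts were set over library totals without TMM. Of all genes, 13.6% had groups apart in CPM, 8.17% with old skin higher and 5.45% with old skin lower. The list was chosen on this same contrast, so these calls and separations are no test of the 8 genes. Nothing is read from their number. A usual filter on low counts (edgeR's filterByExpr) was passed by 6 of the 8, all but ATOH1 and KRT20, which had 1 and 14 counts over the 9 libraries.

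**Figure D1:**
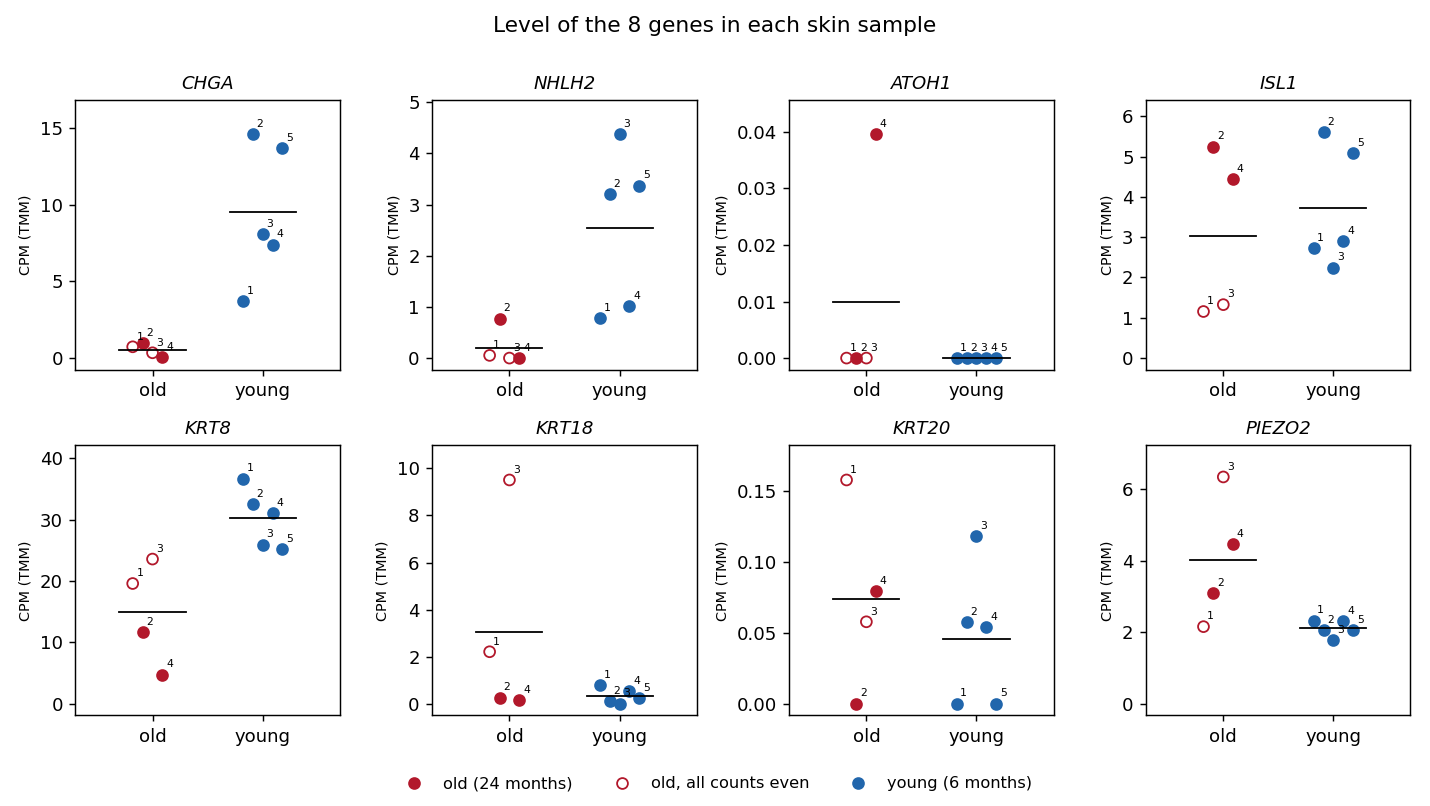
Level of each of the 8 genes in every sample, in CPM after TMM scaling, with old skin on the left and young skin on the right of each panel. Each point is 1 sample, numbered by replicate, open points are the 2 old libraries in which all counts are even, and lines are group means. CHGA lies between 0.0791 and 0.977 CPM in old skin and between 3.72 and 14.6 CPM in young skin.

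CHGA showed the widest gap between the ages. It had 28, 19, 12 and 2 counts in old replicates 1 to 4, against 72, 255, 137, 138 and 240 counts in young replicates 1 to 5. All old samples lay below all young ones. Old replicates 1, 3 and 4 had the larger deposited totals, but halved, old 1 (17.1 M) and old 3 (14.7 M) fell below every young library. The mean level was 0.534 ± 0.400 CPM in old skin (SD, n = 4) and 9.50 ± 4.56 CPM in young skin (SD, n = 5), a log2 fold change of -4.16 ± 0.63. It was -4.16 ± 0.63 with the even libraries halved and -4.18 ± 0.90 without them. Pooled over libraries, young skin held 16.7 times the CHGA of old skin per count sequenced (exact 95% interval 12.2 to 23.4). Within the groups the highest sample was 12.3 times the lowest in old skin and 3.92 times in young skin.

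Among the 5 young samples, CHGA had nearly the same order as genes of slow muscle fibres. Over all 9 samples, with group means removed, its Pearson r was 0.37 with MYH7 and 0.41 with ACTA1, a general skeletal muscle marker. MYH7 ranked 2446 among 12881 genes. Other genes, also chosen after values were seen, had a higher r with CHGA. It was 0.81 with CADPS (rank 71), 0.69 with PROM1 (rank 282) and 0.49 with NHLH1 (all below). It was negative with KRT7, KRT19 and KRT85. The summed level of MYH7, MYL2 and TNNC1, the slow myosin heavy chain, slow myosin light chain and slow troponin C, was 521, 1632, 949, 813 and 1708 CPM in young replicates 1 to 5. CHGA in the same samples was 3.72, 14.6, 8.09, 7.40 and 13.7 CPM. Replicate 1 was thus lowest and replicates 2 and 5 highest in both. The summed level of 8 skeletal muscle markers in these samples was 38573, 71632, 42282, 35467 and 91862 CPM. It was also highest in replicates 2 and 5, but lowest in replicate 4. The shared order was thus not set apart from that of muscle RNA as a whole. In old skin the slow-fibre sum was 38.0, 7.92, 142 and 15.7 CPM in replicates 1 to 4, with CHGA at 0.735, 0.977, 0.346 and 0.0791 CPM, and the order was not shared. These 3 slow-fibre genes were chosen after their values were seen, and their part in the CHGA difference was not tested.

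Genes that work with CHGA in dense-core granules gave calls in both directions. Of 16 granule genes listed, 15 had a count, 2 rose in old skin, 1 fell and 12 did not pass the test, beside the 7.04% and 3.03% of all genes. The median log2 fold change of the 10 that passed the count filter was 0.29, beside -0.05 over the 14933 genes that passed it. The gene that fell was CADPS, which encodes a protein that primes dense-core granules for release. CADPS had 100, 48, 118 and 26 counts in old skin against 126, 314, 152, 196 and 226 in young skin (log2 fold change -2.25 ± 0.38, adjusted p = 0.0056). Its relative CADPS2 had 434, 201, 254 and 241 counts in old skin and 82, 116, 105, 102 and 124 in young skin (0.70 ± 0.20, adjusted p = 0.0477). PTPRN2, a membrane protein of secretory granules, rose by 1.60 ± 0.27 (adjusted p = 0.0055). CADPS and PTPRN2 were called under every alternative tried, while CADPS2 missed the threshold in each fit that dropped 1 library, except when that was old replicate 3 (largest adjusted p = 0.110).

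The other granins listed did not pass the test. CHGB, the closest relative of CHGA in function, had 0, 1, 8 and 6 counts in old skin and 2, 3, 7, 0 and 3 in young skin. SCG2, secretogranin II, had 16, 4, 24 and 3 counts in old skin and 6, 3, 3, 2 and 1 in young skin, with a log2 fold change of 1.13 ± 0.60 (adjusted p = 0.28). SCG3, secretogranin III, had 48, 14, 24 and 37 counts in old skin and 3, 10, 0, 8 and 4 in young skin, with all old samples above all young ones in CPM (1.88 ± 0.64, adjusted p = 0.094). SCG5, a chaperone of a prohormone convertase, stood at 1.28 ± 0.359 CPM in old skin and 1.36 ± 0.992 CPM in young skin (adjusted p = 0.93). The enzymes that process peptide hormones, CPE and PAM, were abundant in both groups, with CPE at 228 ± 12.7 CPM in old skin and 223 ± 43.4 CPM in young skin, and PAM at 262 ± 28.9 CPM in old skin and 237 ± 46.5 CPM in young skin (SD, n = 4 and 5). PCSK1, a prohormone convertase, had no count in any library.

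NHLH2 is a basic helix-loop-helix transcription factor known from developing neurons and the hypothalamus of mouse. It had 2, 15, 0 and 0 counts in old skin, against 15, 56, 74, 19 and 59 counts in young skin. Old replicate 2 held 15 of the 17 old counts, and at 0.771 CPM it was just under the lowest young sample, replicate 1 at 0.774 CPM. The mean was 0.206 ± 0.378 CPM in old skin and 2.55 ± 1.57 CPM in young skin (SD, n = 4 and 5), a log2 fold change of -3.83 ± 1.11. The value was -3.61 ± 1.03 with the even libraries halved, -2.75 ± 1.15 without them and -6.65 without old replicate 2. Per count sequenced, pooled young skin held 11.3 times the NHLH2 of old skin (exact 95% interval 6.82 to 20.2).

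NHLH1, the nearest relative of NHLH2, moved the same way. It had 8, 23, 12 and 6 counts in old skin and 35, 77, 107, 53 and 38 in young skin, with no overlap in CPM (log2 fold change -2.88 ± 0.60, adjusted p = 0.014). The call held without any single library and was lost without old replicates 1 and 3 together (adjusted p = 0.0982). Old replicate 2 was the highest old sample for both genes, and young replicate 3 the highest young sample for both. NHLH1 was 1 of 14 other transcription factors of Merkel and neuroendocrine cells listed, of which 11 had a count, 1 fell, 0 rose and 10 did not pass. Over all genes, 7.04% were called higher and 3.03% lower. The 3 that passed the count filter had a median log2 fold change of -0.05, the same as over all genes that passed it.

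The promoters of NHLH2 and NHLH1 are shown because both genes were lower in old skin, and those of KRT8 and KRT18 because these 2 keratins varied together within the groups (below). Each is the 250 bases before the gene start in RefSeq (rat assembly GRCr8), 5′ to 3′ on the strand of the gene, at chr2:192132598-192132847 (plus strand), chr13:87054935-87055184 (minus), chr7:135010340-135010589 (minus) and chr7:135035918-135036167 (plus). Capitals mark E-boxes, CANNTG, the site bound by basic helix-loop-helix factors such as ATOH1 and NHLH2.
NHLH2: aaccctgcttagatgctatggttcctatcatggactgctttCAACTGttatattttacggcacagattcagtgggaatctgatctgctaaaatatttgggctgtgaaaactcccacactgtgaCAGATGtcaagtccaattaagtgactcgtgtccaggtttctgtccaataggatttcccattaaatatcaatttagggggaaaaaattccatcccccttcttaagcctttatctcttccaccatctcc
NHLH1: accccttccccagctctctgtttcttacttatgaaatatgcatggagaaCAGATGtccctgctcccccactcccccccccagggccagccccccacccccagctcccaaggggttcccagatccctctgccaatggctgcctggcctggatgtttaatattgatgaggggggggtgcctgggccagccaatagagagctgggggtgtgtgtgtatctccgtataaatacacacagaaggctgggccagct
KRT8: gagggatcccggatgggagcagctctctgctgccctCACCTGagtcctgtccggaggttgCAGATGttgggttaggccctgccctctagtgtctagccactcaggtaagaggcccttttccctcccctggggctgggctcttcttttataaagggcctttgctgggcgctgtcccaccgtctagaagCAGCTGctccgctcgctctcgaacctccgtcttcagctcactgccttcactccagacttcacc
KRT18: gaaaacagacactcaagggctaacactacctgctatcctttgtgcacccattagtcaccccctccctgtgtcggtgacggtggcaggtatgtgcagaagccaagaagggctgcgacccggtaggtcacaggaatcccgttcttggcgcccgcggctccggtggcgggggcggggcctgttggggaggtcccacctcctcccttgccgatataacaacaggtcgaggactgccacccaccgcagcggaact

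The E-box reads the same on both strands, so 1 search covers both. The window holds 2 E-boxes in NHLH2, 1 in NHLH1, 3 in KRT8 and 0 in KRT18, and 65.5% of 33469 promoter windows of the same length hold at least 1. NHLH2 and NHLH1 share the form CAGATG, which KRT8 also holds. The form CAGCTG, a subset of these matches, is present in KRT8 and in 12% of all windows. A match of letters is a description of the sequence and not a measured site. Promoter windows were found for 7 of the 8 genes, all but CHGA.

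ISL1, a homeobox transcription factor of sensory neurons that Merkel cells also express, did not separate the ages. It had 44, 102, 46 and 112 counts in old skin and 53, 98, 38, 54 and 89 in young skin, or 3.04 ± 2.10 CPM in old skin and 3.71 ± 1.52 CPM in young skin (SD, n = 4 and 5). The log2 fold change was -0.30 ± 0.50, and it was 0.41 ± 0.38 without the even libraries. With basal keratin counts as the scale in place of TMM it was 0.50, where the median of all genes was 0.62, beside -0.03 with TMM. In each group, the 2 samples highest in ISL1 were the 2 with the most muscle RNA. The summed level of 8 skeletal muscle markers was 23643, 69779, 12076 and 47230 CPM in old replicates 1 to 4, where ISL1 was 1.16, 5.24, 1.33 and 4.43 CPM. In young replicates 1 to 5 the sum was 38573, 71632, 42282, 35467 and 91862 CPM, and ISL1 was 2.74, 5.60, 2.24, 2.90 and 5.08 CPM. The part of muscle in the ISL1 values was not tested.

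KRT8 and KRT18 encode keratins that pair with each other in simple epithelia, and here their means differed between the ages in opposite directions. KRT8 had 746, 227, 818 and 120 counts in old skin against 711, 570, 439, 579 and 441 in young skin. After TMM scaling, all old samples (19.6, 11.7, 23.6 and 4.75 CPM) lay below all young ones (25.2 to 36.7 CPM). Set over library totals without TMM, old replicate 3 lay above young replicates 3 and 5. The separation of the groups thus depends on the scaling. The mean was 14.9 ± 8.38 CPM in old skin and 30.3 ± 4.80 CPM in young skin (SD, n = 4 and 5), a log2 fold change of -1.02 ± 0.37. It was -1.03 ± 0.37 with the even libraries halved, -1.85 ± 0.35 without them, and -0.48 with basal keratin counts as the scale (median of all genes 0.62).

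KRT18 had 84, 5, 330 and 4 counts in old skin and 15, 2, 0, 10 and 4 in young skin. Old replicate 3 held 330 of the 423 old counts, and old replicates 2 and 4 lay inside the young range. The mean was 3.03 ± 4.42 CPM in old skin and 0.331 ± 0.318 CPM in young skin (SD, n = 4 and 5), a log2 fold change of 3.17 ± 1.16. The value was 1.45 without old replicate 3 and -0.67 ± 1.06 without old replicates 1 and 3, so its direction rests on those 2 libraries. RefSeq lists 7 pseudogenes or like copies of Krt18 and 1 of Krt8, none of them a row of the table, so reads of these copies may be counted here and both values are uncertain.

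Within the old group, KRT8 and KRT18 were both high in replicates 1 and 3, the libraries of even counts, which also had the least muscle RNA (23643 and 12076 CPM, against 69779 and 47230 CPM in replicates 2 and 4). After removal of the group means, log2 CPM of KRT8 and KRT18 had a Pearson r of 0.81 over the 9 samples, and 0.66 without the 2 samples furthest from the median of KRT8. KRT19, a further simple keratin, had 108, 48, 798 and 15 counts in old skin and 49, 7, 10, 37 and 14 in young skin, and did not pass the test (2.51 ± 0.94, adjusted p = 0.12). Its r with KRT18 was 0.90, and 0.74 without the 2 furthest samples. A high r was not particular to keratins. The slow muscle gene MYH7 had an r of 0.81 with KRT8 and 0.75 with KRT18. Without the 2 furthest samples these were 0.38 and 0.32. Among 12881 genes set against KRT8, MYH7 ranked 65 and KRT18 ranked 67. These values are descriptions over 9 samples that share library composition.

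**Figure D2:**
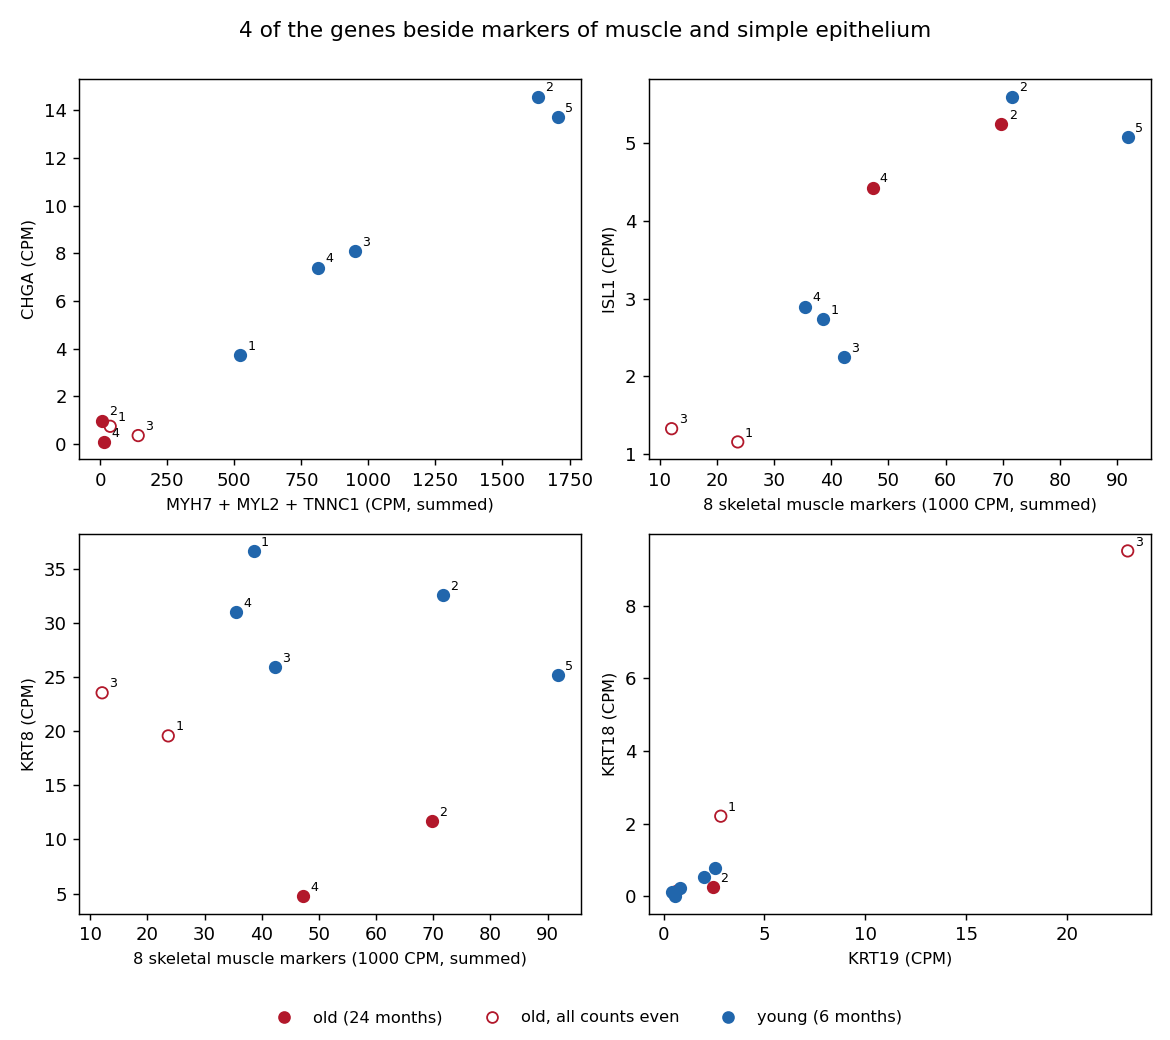
CHGA against the summed slow-fibre genes MYH7, MYL2 and TNNC1, ISL1 and KRT8 against 8 summed skeletal muscle markers, and KRT18 against KRT19, each in CPM, with 1 point per sample numbered by replicate (in the last panel for old replicates 1 to 3 only). Among young samples CHGA is lowest, at 3.72 CPM, where the slow-fibre sum is lowest, at 521 CPM, and old replicate 3 stands apart in KRT18 at 9.51 CPM.

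Markers of gland and simple epithelium as a whole gave 1 call. Of 11 such markers, 0 rose, 1 fell and 10 did not pass, beside 7.04% of all genes higher and 3.03% lower. The median log2 fold change of the 11 was -0.32, beside -0.05 over all genes that passed the count filter. Their summed level was 315 to 855 CPM in old skin and 527 to 922 CPM in young skin. The gene that fell was PROM1, a membrane protein of epithelial protrusions and a stem cell marker, with 130, 225, 144 and 93 counts in old skin and 479, 1895, 674, 778 and 855 in young skin (-3.22 ± 0.53, adjusted p = 0.0047). KRT7, a keratin of ducts and glands, stood at 2.87 ± 1.55 CPM in old skin and 2.91 ± 0.937 CPM in young skin.

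PIEZO2, the mechanically gated channel of Merkel cells and touch neurons, averaged higher in old skin. It had 82, 60, 220 and 113 counts in old skin and 45, 36, 30, 43 and 36 in young skin. Young samples spanned 1.77 to 2.32 CPM. Old replicate 1, at 2.15 CPM, fell within that span, and old replicates 2 to 4 exceeded it. The mean was 4.01 ± 1.82 CPM in old skin and 2.10 ± 0.225 CPM in young skin (SD, n = 4 and 5), a log2 fold change of 0.93 ± 0.30. It was 0.93 ± 0.30 with the even libraries halved, 0.87 ± 0.25 without them and 0.64 without old replicate 3. Young skin was even, with the highest sample at 1.31 times the lowest, and old skin spread over 2.94 times. Pooled over libraries, old skin held 2.10 times the PIEZO2 of young skin per count sequenced (exact 95% interval 1.75 to 2.52).

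**Figure D3:**
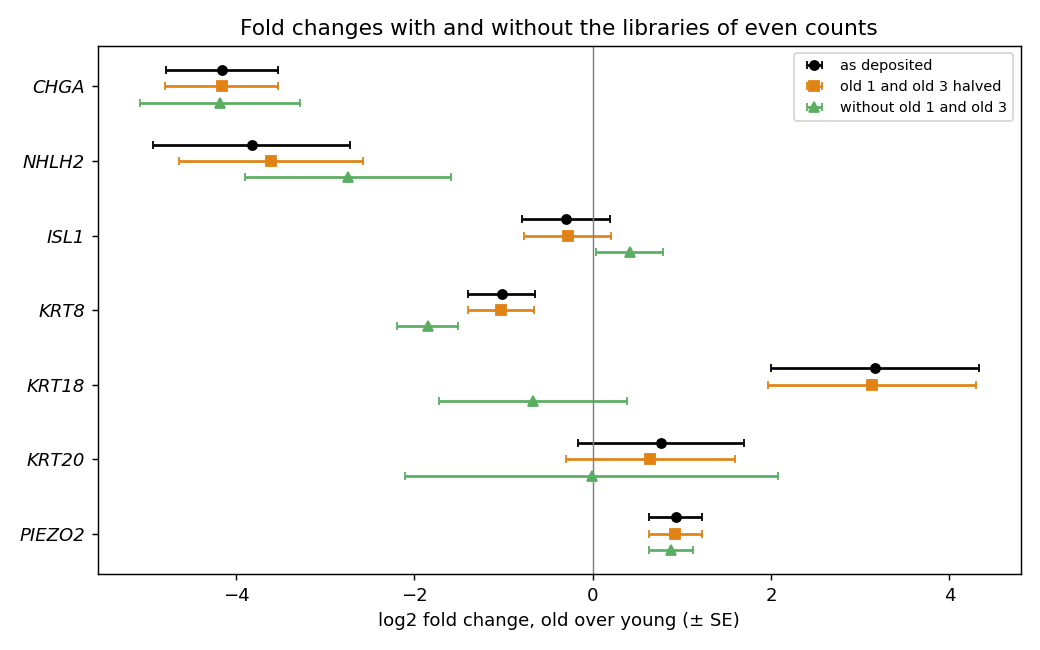
Log2 fold change of old over young skin with its standard error for 7 of the 8 genes (ATOH1 had 1 count in all), with the counts as deposited, with old replicates 1 and 3 halved, and without them. CHGA stays between -4.18 and -4.16, while KRT18 is 3.17 as deposited and -0.67 without the 2 libraries.

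Other channels gave 3 calls. Of 17 mechanosensitive and voltage-gated channels listed, PIEZO1 (in the table under its older symbol FAM38A) included, 1 rose, 2 fell and 14 did not pass, beside 7.04% of all genes higher and 3.03% lower. The median log2 fold change of the 14 that passed the count filter was 0.09. TMC4, of the transmembrane channel-like family, had 2, 36, 182 and 56 counts in old skin and 0, 1, 1, 0 and 0 in young skin (adjusted p = 0.010), a pooled ratio of 113 (exact 95% interval 30.9 to 942). TMC4 did not pass the count filter, and in the fit with that filter 0 of the listed channels rose. The genes that fell were TMEM63B, a mechanically gated ion channel, by 0.44 ± 0.11 (adjusted p = 0.0344), and CACNA1B, the pore of the N-type calcium channel, by 1.65 ± 0.46 (adjusted p = 0.0473). Both calls held when young replicate 1 was dropped and missed the threshold when any other single library was (largest adjusted p = 0.125 for TMEM63B and 0.136 for CACNA1B). With basal keratin counts as the scale, which puts the median of all genes at 0.62, TMEM63B was at 0.25.

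Of 12 sensory neuron markers, 3 rose, 0 fell and 9 did not pass, beside 7.04% of all genes higher and 3.03% lower. The median log2 fold change was 0.16 among the 7 that passed the count filter. SCN10A and SCN11A did not pass that filter, and in the fit with it 1 marker of the list rose. SCN10A, a sodium channel of pain-sensing neurons, had 72, 3, 164 and 64 counts in old skin and 0, 1, 2, 1 and 0 in young skin (adjusted p = 0.0066), a pooled ratio of 56.9 (exact 95% interval 21.9 to 211). SCN11A, a related channel, had 28, 0, 70 and 35 counts in old skin and 1, 0, 2, 1 and 0 in young skin (adjusted p = 0.0295). P2RX3, an ATP-gated channel of the same neurons, rose by 1.43 ± 0.29 (adjusted p = 0.0122). SCN11A held when old replicate 1 or 2 was dropped and not when any other single library was (largest adjusted p = 0.0713). It also missed the threshold in limma-voom (adjusted p = 0.144) and without young replicates 1 and 4 together (0.125). NEFH, a neurofilament of large sensory neurons, stood at 10.1 ± 4.04 CPM in old skin and 14.4 ± 4.47 CPM in young skin and did not pass (adjusted p = 0.36).

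Of 18 neuropeptide and amine synthesis genes listed, 15 had a count, 2 rose, 0 fell and 13 did not pass. Over all genes, 7.04% were called higher and 3.03% lower. The 5 that passed the count filter had a median log2 fold change of 0.66, beside -0.05 over all genes that passed it. CALCB, a calcitonin gene-related peptide of sensory neurons, had 134, 2, 360 and 212 counts in old skin and 2, 0, 6, 2 and 0 in young skin (adjusted p = 0.0123), a pooled ratio of 56.7 (exact 95% interval 30.6 to 119). CALCB did not pass the count filter, and in the fit with that filter 1 gene of the list rose. TPH1, which makes serotonin in mast cells of rat and in other cells outside the brain, rose by 1.88 ± 0.47 (adjusted p = 0.0326), with the same dependence on single libraries as SCN11A (largest adjusted p = 0.0944). CALCB and TMC4 missed the threshold in limma-voom (adjusted p = 0.0893 for CALCB and 0.106 for TMC4) and without young replicates 1 and 4 together (0.0763 for CALCB and 0.0653 for TMC4). CALCA, the partner of CALCB, had 4, 0, 12 and 4 counts in old skin and 2, 2, 2, 0 and 0 in young skin and did not pass (adjusted p = 0.45). NPY, CARTPT and DBH, the last an enzyme of adrenal chromaffin cells and sympathetic neurons, had no count in any library.

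The machinery of synaptic vesicles, which Merkel cells share with neurons, gave 3 calls. Of 21 genes listed, 20 had a count, 3 rose, 0 fell and 17 did not pass, beside 7.04% of all genes higher and 3.03% lower. The 14 that passed the count filter had a median log2 fold change of 0.35, beside -0.05 over all genes that passed it. RAB3B, a small GTPase of secretory vesicles, had 280, 45, 70 and 171 counts in old skin and 16, 8, 9, 14 and 13 in young skin (2.79 ± 0.44, adjusted p = 0.0039). SYP, synaptophysin, a common stain for neuroendocrine cells, stood at 0.871 ± 0.0451 CPM in old skin and 0.540 ± 0.292 CPM in young skin and did not pass (adjusted p = 0.32).

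Genes of the touch dome and of the pathways upstream of Atoh1 gave 3 calls in all. Of 15 touch dome, hedgehog and neurotrophin genes, 2 rose, 0 fell and 13 did not pass, with a median log2 fold change of 0.06. NTRK2, the receptor of brain-derived neurotrophic factor, stood at 30.4 ± 6.63 CPM in old skin and 15.3 ± 3.43 CPM in young skin (0.99 ± 0.19, adjusted p = 0.0106). Its ligand BDNF rose by 1.29 ± 0.36 (adjusted p = 0.0475), a call that held among single libraries dropped only for old replicate 2 (largest adjusted p = 0.110). Of 20 Notch and polycomb genes, which hold Atoh1 in check in mouse epidermis or ear, 19 were in the table, 0 rose, 1 fell and 18 did not pass, and the 18 that passed the count filter had a median of -0.04. The gene that fell was CBX2, a polycomb reader protein, by 0.66 ± 0.17 (adjusted p = 0.0326), and of the 9 fits that dropped 1 library it held in those without young 2, young 5 and old 1 (largest adjusted p = 0.129). With basal keratin counts as the scale it was at 0.00748, also below the median of all genes there. Over all 7 lists of related genes, 112 had a count, of which 10 rose and 5 fell, beside the 7.04% and 3.03% of all genes. With 1 library dropped, 6 rose when it was old 4, young 2, young 3 or young 4. The number that fell was 2 when it was old 2, old 4, young 3 or young 4, and 3 when it was old 1 or young 2. Of the list genes reported by name and called with all libraries, 11 missed the threshold without old replicates 1 and 3 together: BDNF, CACNA1B, CADPS2, DCT, KRT1, MB, NHLH1, SCN11A, TMEM63B, TPH1 and TYRP1.

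**Figure D4:**
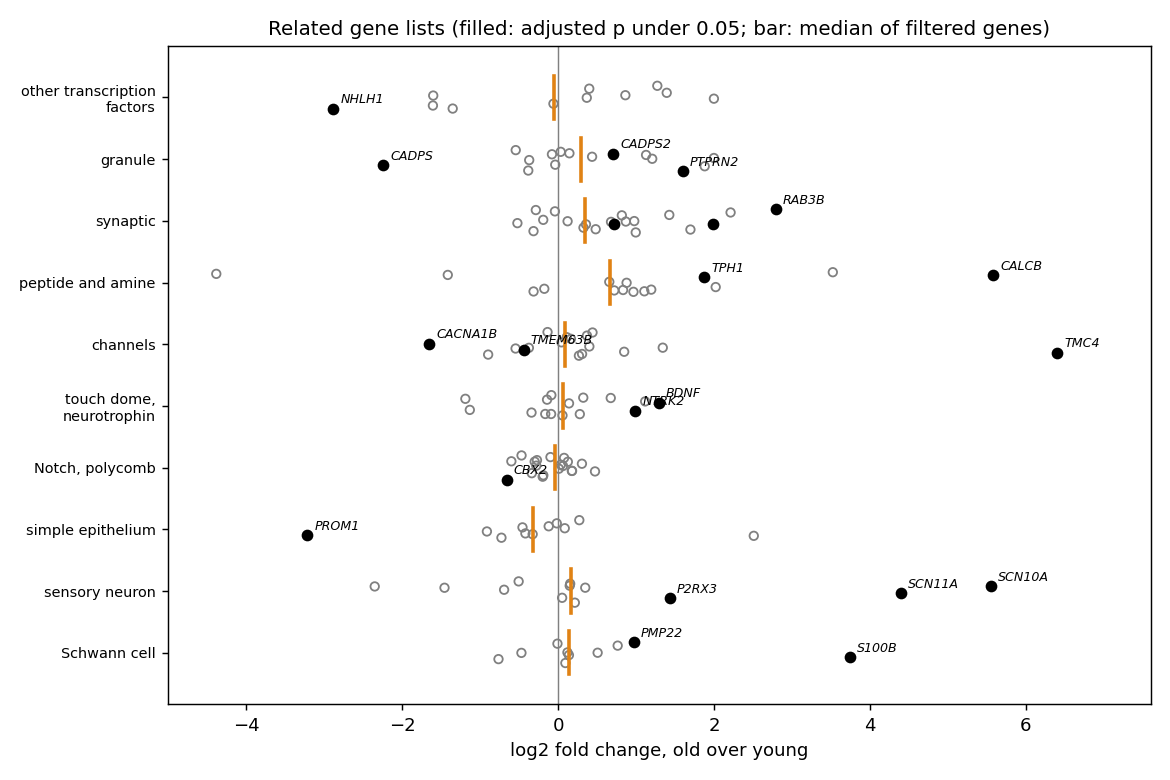
Log2 fold change of old over young skin for each gene with a count in 10 lists of related genes and neighbouring cell types, 1 point per gene, filled where the adjusted p was under 0.05. Bars are the median of the genes of a list that passed the count filter. NHLH1 (-2.88), CADPS (-2.25) and PROM1 (-3.22) lie to the left. SCN10A (5.55), CALCB (5.59) and TMC4 (6.40), which did not pass that filter, lie to the right.

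Marker RNA of other cell types also differed between the ages. The counts of calls below stand beside 7.04% of all genes called higher and 3.03% lower. All 7 fat cell markers rose, with a summed level of 2127 to 6448 CPM in old skin and 384 to 868 CPM in young skin. They included ADIPOQ, PLIN1, LPL and CIDEC, with log2 fold changes of 3.10 to 4.37. Of 10 Schwann cell markers, 2 rose, S100B, which fat cells also express (3.74 ± 0.48, adjusted p = 0.0018), and PMP22 (0.97 ± 0.15, adjusted p = 0.0036). SOX10, the defining transcription factor of Schwann cells and melanocytes, did not pass (adjusted p = 0.27). Of 8 basal keratinocyte markers 1 fell, KRT14 (-0.97 ± 0.23, adjusted p = 0.0266), and the summed level of the 8 was 5721 to 10983 CPM in old skin and 8655 to 15936 CPM in young skin. KRT14 held when young 1, young 5, old 1 or old 3 was dropped and not for the other libraries (largest adjusted p = 0.102). Of 8 suprabasal markers, KRT1 and IVL fell, and KRT1 missed the threshold when old 1 or old 4 was dropped. With basal keratin counts as the scale, both missed it, KRT1 at -0.92 (adjusted p = 0.081) and IVL at -0.21 (adjusted p = 0.52). TYRP1 and DCT, of 7 melanocyte markers, fell, and DCT missed it when old 3 or old 4 was dropped. TYRP1 had 2, 1, 0 and 3 counts in old skin and 2128, 37, 30, 1159 and 135 in young skin. DCT had 84, 26, 22 and 23 in old skin and 2986, 76, 96, 1641 and 157 in young skin. Young replicates 1 and 4 were thus far above the other young samples. Both genes missed the threshold in limma-voom (adjusted p = 0.090 for TYRP1 and 0.136 for DCT). MB, myoglobin, was the 1 of 8 muscle markers that fell (by 2.00 ± 0.47), and missed it when old 1, old 4 or young 2 was dropped. None of 6 smooth muscle markers passed. Hair shaft keratins (KRT81 to KRT86, 6 genes, chosen after their values were seen) summed to 1483, 422, 2.94 and 30.7 CPM in old skin and to 4149, 3.83, 260, 889 and 0.171 CPM in young skin. The part of these differences in the values of the 8 genes was not tested. With the counts of KRT5, KRT14 and KRT15 as the scale in place of TMM, the median of all genes was 0.62. On that scale CHGA was at -3.41, NHLH2 at -2.83 and KRT18 at 3.39. A change of scale moves all genes of a sample alike, so it does not test the part of any cell type. KRT14, which is in that scale, was itself called lower.

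Genes whose level followed that of a member were sought for the 6 members with a mean of at least 1 CPM. Over the 9 samples, with group means removed, the 3 highest Pearson correlations of log2 CPM among 12881 genes were for CHGA with SPPL2A (0.98), PLA2G5 (0.97) and PORCN (0.96), and for NHLH2 with FAM98A (0.96), BLMH (0.96) and PCDHB5 (0.95). For ISL1 they were SIX4 (0.99), AGTPBP1 (0.99) and CLCN4 (0.98). For KRT8 they were C5AR2 (0.94), SLC31A1 (0.93) and OPTC (0.92), for KRT18 GALNT3 (0.98), ZFP146 (0.95) and STK3 (0.94), and for PIEZO2 LIN52 (0.97), TLR5 (0.96) and THAP2 (0.96). No member was among the 3 highest of another. CHGA and NHLH2 had an r of 0.74, rank 178 of the genes set against CHGA, and NHLH2 and NHLH1 had an r of 0.82, or 0.42 without the 2 samples furthest from the median of NHLH2. CHGA and PIEZO2 had an r of -0.53. The highest of so many genes over 9 samples are a description of these libraries.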

How the data were processed

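Per the labels' protocols, RNA was isolated with Qiagen RNeasy columns, and polyA libraries were prepared with TruSeq RNA v2. Strand is not kept by that kit, so overlapping and antisense genes share reads. Of tools, BWA is named (without version) in the submitters' processing notes. Genome build, annotation and counting rule were not given in the sources used here. The deposited table holds raw counts for each gene symbol, with 1 column per sample.

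The 8 genes and all gene lists were chosen with earlier results of these data known. Named beside the 8 were up to 4 called genes per list with the smallest adjusted p, or all called where 5 or fewer were, and the 3 genes most like each member (mean of at least 1 CPM). Other genes named with values were chosen after their values were seen. Some listed genes enter the counts and medians of their lists but are not reported here by name. Of 206 listed genes, 203 were found by name, 1 under an older symbol and 2 not at all. 3996 symbols without a count were left out, with no other filter. Old and young were compared with edgeR 4.0.16 (R 4.3.3; quasi-likelihood test, TMM, no covariate, Benjamini-Hochberg over 19484 genes). Standard errors were worked back from the test and are approximate for low counts. Pooled ratios set counts over totals, with old replicates 1 and 3 halved. Levels used for likeness had a prior count of 2.

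Between any pair of libraries in a group, chi-square per degree of freedom was 32.2 or more, so none was treated as a repeat. Alternatives were DESeq2 1.42.0, limma-voom (limma 3.58.1), other scalings, filterByExpr, thinning, a replicate block and libraries left out. Halving or leaving out old replicates 1 and 3 together, and leaving out young replicates 1 and 4 together, were chosen after seeing the data. Names and promoters came from RefSeq GRCr8. Figures were drawn with matplotlib 3.10.9.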

Additional observations from a re-analysis of the deposited data

Results flagged for a closer look

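In 7 of 74 groups of samples, 1 sample stood far from the others of its group by Dixon's test at 95%, which chance does for about 1 group in 20. Old replicate 2 stood apart in 3 of them: NHLH2 at 0.771 CPM (others 0 to 0.0525), NHLH1 at 1.18 CPM (others 0.210 to 0.346) and PROM1 at 11.6 CPM (others 3.41 to 4.15). ATOH1 was at 0.0396 CPM in old replicate 4, from 1 count, and at 0 in the other old samples, a pattern that any gene with a count in 1 of 4 samples gives by construction. For TMEM63B, old replicate 1 had 83.9 CPM and the remaining old samples 88.3 to 88.6 CPM. In young skin, PROM1 was at 108 CPM in replicate 2 (others 24.7 to 48.8) and S100B at 41.8 CPM in replicate 1 (others 9.21 to 17.8).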

How the results depend on the processing

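With old replicates 1 and 3 halved, 1370 of the 1372 genes called higher and 585 of the 591 called lower were called again. CHGA was negative in all 21 alternatives, from -4.54 to -3.27 on the log2 scale. Left out 1 library at a time, NHLH2 ran from -6.65 to -3.33, KRT8 from -1.30 to -0.68, KRT18 from 1.45 to 3.75, KRT20 from 0.15 to 1.38, PIEZO2 from 0.64 to 1.19 and ISL1 from -0.70 to 0.01. In the same fits 934 to 1464 genes were higher and 210 to 688 lower over the whole table. The number lower was 318 without young replicate 2, 311 without young 3, 331 without young 4 and 210 without old 4. The 7 related lists gave 6 to 10 higher and 2 to 4 lower, and the 9 cell type lists 11 to 12 higher and 3 to 8 lower.

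Without old replicates 1 and 3 together, KRT8 was -1.85, KRT18 -0.67 and KRT20 -0.0115, with 6 genes higher in the 7 lists and 4 lower in the cell type lists. Without young replicates 1 and 4 together, 881 genes were higher and 334 lower, with 5 higher in the 7 lists. DESeq2 called 1279 lower, with 17 higher and 9 lower in the 7 lists and 13 lower in the cell type lists, and limma-voom 5 higher in the 7 lists. In limma-voom, CADPS2 (adjusted p = 0.052), CACNA1B (0.082) and BDNF (0.086) also missed the threshold. With library totals alone, 298 were lower over all genes and 2 in the 7 lists, and the median of all genes was 0.14, beside -0.03 with TMM. Basal keratin counts as the scale moved that median to 0.62. They gave 4567 higher and 107 lower, 25 higher and 2 lower in the 7 lists and 4 lower in the cell type lists, with KRT20 at 1.36, PIEZO2 at 1.50, TMEM63B at 0.25 and CBX2 at 0.00748. On mean CPM with a pseudocount of 0.5, NHLH2 was -2.11 and KRT20 0.0716. The causes of these shifts were not tested.

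The labels tie no sample of one age to a sample of the other. Samples with the same number had correlations of 0.67, -0.07, 0.07 and -0.47 across ages, so they were not taken as pairs. With a replicate block, 1112 genes were higher and 599 lower, and the 7 lists gave 7 and 4. CHGA was at -4.02 in that fit. ATOH1 and KRT20 are limited by depth, at 1 and 14 counts over 9 libraries.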
